A study of Mus musculus with 24 samples.

Results

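Interferon-stimulated genes were followed in cultured mouse liver cells through the 9 members Irf9, Stat2, Irf1, Irf7, Ifit1, Ifit3, Isg15, Oasl2 and Bst2. They were chosen by name and matched through their Ensembl gene identifiers, and all 9 were found among the 16604 genes used. The cells were EMS404, a single mouse hepatic stellate line from C57Bl6 liver that was immortalized with SV40 and carries human TLR4, so every group shared these alterations. RNA sequencing covered 24 libraries in 8 groups of 3, which the submitters call biological triplicates. That the 3 came from separate cultures is not stated, so the p-values measure the spread between these samples, which may be technical. A vehicle group and a group given TGFb (transforming growth factor beta, 10 ng/mL) were set beside groups given 1 of 3 compounds, each with and without TGFb. Library names mark both the vehicle group and the TGFb group with DMSO, while the sample titles call the vehicle group untreated (control). SB431542 blocks the TGFb receptor, SR9011 activates the clock repressor REV-ERB alpha, and CLK8 breaks up the CLOCK:BMAL1 clock dimer. Compounds were given for 24 h and then for 24 h more together with TGFb. The sources used here do not give the doses of the 3 compounds. Nor do they say whether the groups without TGFb were held for the second 24 h, so TGFb and time in culture cannot be told apart.

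Type I interferons bind the receptor pair IFNAR1 and IFNAR2, which activates the kinases JAK1 and TYK2 and leads to ISGF3, a complex that holds STAT2 and IRF9. ISGF3 binds interferon-stimulated response elements in promoters, whereas interferon gamma acts at gamma-activated sites. Many of the genes switched on in this way restrict viruses, and in most cells some of them are also kept at a low level without added interferon, in part through unphosphorylated ISGF3 components and IRF1.

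Levels are FPKM, fragment counts scaled to transcript length and to the library's mapped fragments, and so can be compared between genes. Changes are on the scale of log2(FPKM + 1), which makes those of low genes look smaller than they are. They were tested with limma across 11297 genes, and a gene is called where its Benjamini-Hochberg adjusted p is under 0.05. Whether groups overlapped is given for single genes as a description, and the share of all tested genes without overlap was not worked out. FPKM summed to 503920 to 610024 per library, and 10780 to 11000 genes reached 1 FPKM in each. SR9011 replicate 1 had the highest FPKM sum and stood farthest from its group mean, with a mean squared deviation on the log2 scale of 0.0192 over tested genes against 0.00346 to 0.0119 in the other 23 libraries. Of 10 stellate markers, 9 were in the table: Col1a1, Vim, Pdgfrb, Hand2 and Lhx2 were present (group means of 8.7 to 11.6 FPKM for Lhx2), while Des, the intermediate filament desmin, stayed at or below 0.39 FPKM in every library and Reln was at 0. Stellate marker sums were 3756.46 to 3924.75 FPKM in vehicle and 5135.6 to 5765.44 FPKM with TGFb. They were 3004.33 to 3149.24 FPKM with SB431542 and 3444.73 to 3678.38 FPKM with SB431542 and TGFb. With SR9011 they were 1363.04 to 1549.32 FPKM, and with SR9011 and TGFb 2638.17 to 2787.64 FPKM. With CLK8 they were 2967.6 to 3028.03 FPKM, and with CLK8 and TGFb 4614.96 to 5242.98 FPKM. Their part in the results below was not tested. Markers of hepatocytes summed to at most 0.22 FPKM, those of lymphocytes and plasmacytoid cells to at most 0.17 FPKM, and those of endothelium to at most 3.38 FPKM. Macrophage markers (6 of 8 in the table) summed to 5.39 to 12.79 FPKM, nearly all Cd14 and Cd68 with Ptprc and Itgam at or below 0.02 FPKM, and cholangiocyte markers (4 of 4) to 2.51 to 11.36 FPKM. In bulk RNA, fewer cells of a type and less RNA per cell cannot be told apart. Mesothelial markers (4 of 4: Upk3b, Wt1, Msln and Krt8) reached larger sums than the macrophage or cholangiocyte markers. Their sums in each group are given below, and Krt8 stayed at or below 1.83 FPKM.

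On GRCm38 (mm10) all 9 genes are protein coding. Stat2 (ENSMUSG00000040033) lies on chromosome 10 at 128270559 to 128292849, Irf9 (ENSMUSG00000002325) on chromosome 14 at 55603571 to 55610030, Irf1 (ENSMUSG00000018899) on chromosome 11 at 53770014 to 53778374 and Irf7 (ENSMUSG00000025498) on chromosome 7 at 141262706 to 141266481. Ifit3 (ENSMUSG00000074896, 34583531 to 34588731) and Ifit1 (ENSMUSG00000034459, 34640871 to 34650009) are neighbours on chromosome 19. Isg15 (ENSMUSG00000035692) lies on chromosome 4 at 156199424 to 156200818, Oasl2 (ENSMUSG00000029561) on chromosome 5 at 114896936 to 114912234 and Bst2 (ENSMUSG00000046718) on chromosome 8 at 71534255 to 71537456. Of the 50-base stretches in Ifit3's longest transcript, 51.2% also occur in Ifit3b, so its values are uncertain as to which copy they measure. The other members shared at most 7.13% of such stretches with another gene (Ifit1, almost all with Ifit1bl2). Exons of Irf7 overlap Phrf1, those of Irf9 overlap Rnf31 and those of Irf1 overlap Gm17334. The sources used here do not say whether the libraries kept strand, so reads from these overlaps cannot be assigned. Phrf1 and Rnf31 were not called in any of the 13 comparisons, with group means of 18.1 to 20.6 FPKM for Phrf1 and 11.7 to 13.8 FPKM for Rnf31.

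RefSeq promoter windows (GRCm38.p6, 250 bases before to 50 after a transcription start) were available for all 9 genes, in 11 windows. They were searched on both strands for the core letters of the interferon-stimulated response element (GAAA, any 2 bases, then GAAA) and for the letters of a gamma-activated site (TTC, any 3 bases, then GAA). The stretches from base -160 to base -41 of the 5 genes with a match there are shown, read 5′ to 3′ on the gene's strand with the matches in capitals, because they place the elements that the pathway is known to use beside the genes measured.
Ifit1 (chr19:34640729-34640848, plus strand): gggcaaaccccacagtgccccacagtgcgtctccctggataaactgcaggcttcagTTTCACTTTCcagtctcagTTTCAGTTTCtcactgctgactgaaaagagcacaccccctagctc
Ifit3 (chr19:34583369-34583488, plus strand): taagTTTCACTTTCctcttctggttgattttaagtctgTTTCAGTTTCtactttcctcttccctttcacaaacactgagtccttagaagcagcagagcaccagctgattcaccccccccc
Isg15 (chr4:156200859-156200978, minus strand): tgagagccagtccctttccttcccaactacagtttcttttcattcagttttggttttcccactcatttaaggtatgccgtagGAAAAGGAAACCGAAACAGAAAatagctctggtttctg
Bst2 (chr8:71537513-71537632, minus strand): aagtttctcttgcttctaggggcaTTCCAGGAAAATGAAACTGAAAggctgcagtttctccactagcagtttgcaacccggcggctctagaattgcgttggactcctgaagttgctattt
Irf1 (chr11:53769854-53769973, plus strand): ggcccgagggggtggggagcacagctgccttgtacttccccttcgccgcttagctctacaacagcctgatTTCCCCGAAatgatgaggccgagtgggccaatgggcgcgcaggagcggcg
Ifit1 and Ifit3 each held a pair of separate matches to the response element core, read here from the opposite strand. Isg15 held 3 matches that overlap in a single run. In Bst2, a pair of overlapping matches was itself overlapped by a match to the gamma-activated site, the only member window with both motifs. Irf1 held the gamma-activated site alone. Stat2 had a match to the response element core further out, at base -222, and no window of Irf7, Irf9 or Oasl2 held either motif. In all, 5 of 9 members held the response element core, which is in 3.44% of 32851 RefSeq windows and in 42 of 108 other interferon pathway genes. The gamma-activated site was in 2 of 9 members, in 8.3% of all windows and in 26 of the 108. Members with and without a match are described together below, since a match is a description of letters only.

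The members spanned a wide range of levels. Bst2, which encodes tetherin, a membrane protein that holds budding virus particles on the cell, had the highest median over the 24 libraries at 276.5 FPKM, above 98.4% of all genes by its mean. Isg15, a ubiquitin-like protein that is attached to other proteins, followed with a median of 114.6 FPKM. The other 7 had medians of 17.7 FPKM (Ifit3) to 39.0 FPKM (Oasl2). Ifit3 varied most between groups, by 6.29 times from its lowest to its highest group mean, and Irf7, Ifit1, Oasl2 and Isg15 varied by 2.98 to 3.37 times. Irf1 varied by 2.21 times, Bst2 by 1.90 times, Stat2 by 1.56 times and Irf9 by 1.501 times.

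**Figure D1:**
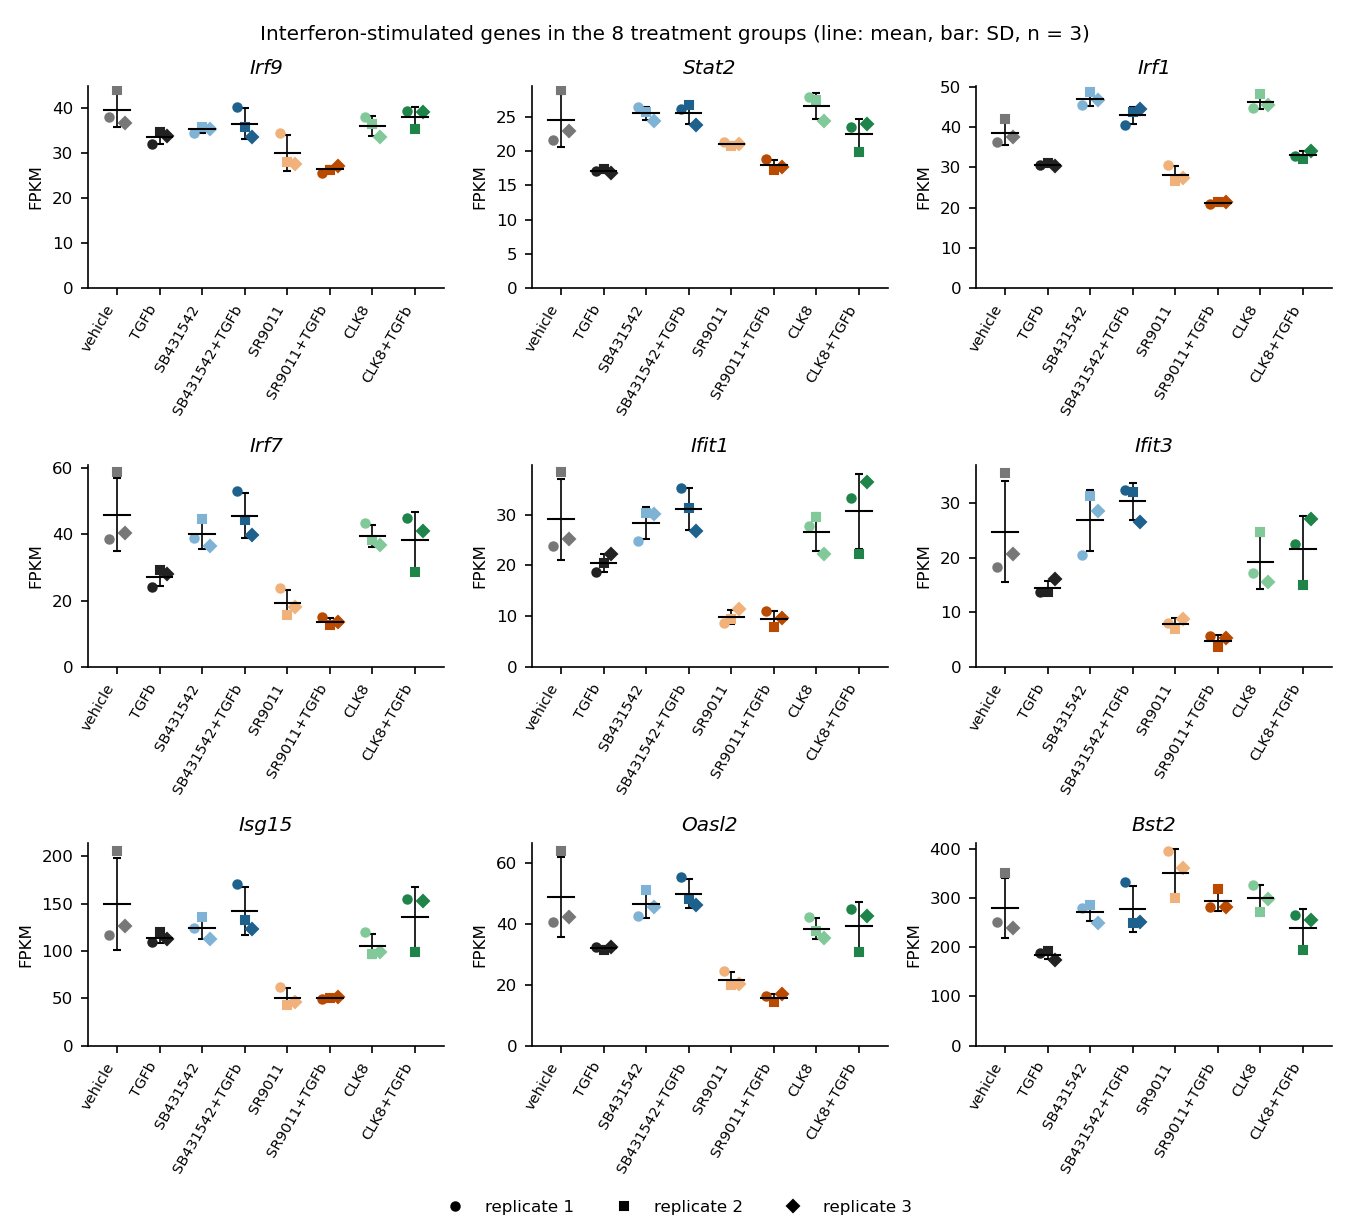
FPKM of each of the 9 genes (vertical axes, each from 0) in the 8 treatment groups (horizontal axes), with 1 point per library, its replicate number given by the symbol, the group mean as a line and the SD as a bar (n = 3). The SR9011 groups are lowest for Ifit1, Ifit3, Isg15, Oasl2, Irf7, Irf9 and Irf1, whereas Bst2 is highest with SR9011 and lowest with TGFb.

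The question behind the first comparison was what TGFb does to these genes. TGFb lowered 8 of the 9 members, by 0.23 (Irf9) to 0.72 (Irf7) on the log2 scale, and raised none. The background of this comparison was 34.4% of all tested genes lower and 20.5% higher. The members' median change was -0.49 against -0.05 over all tested genes.

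Stat2, the subunit that gives ISGF3 its transactivation domain, was at 21.6, 28.9 and 22.8 FPKM in vehicle and at 17.1, 17.4 and 16.7 FPKM with TGFb. The groups did not overlap, and the fall was 0.49 on the log2 scale (SE 0.08, adjusted p = 1.84e-05, limma). Irf1, a transcription factor of both interferon types, was at 36.2, 41.9 and 37.6 FPKM in vehicle and at 30.5, 31.0 and 30.3 FPKM with TGFb. Irf1 fell by 0.32 (SE 0.05, adjusted p = 2.21e-05, limma), again without overlap. Irf7, the factor that amplifies type I interferon production, was at 38.7, 58.8 and 40.5 FPKM in vehicle and at 24.2, 29.2 and 28.03 FPKM with TGFb. It fell by 0.72 (SE 0.17, adjusted p = 0.00163, limma), and the highest vehicle library stood well above the other 2. Irf9, which gives ISGF3 its sequence recognition, moved least of the 8, from 39.6 ± 3.88 to 33.5 ± 1.45 FPKM (SD, n = 3), a fall of 0.23 (adjusted p = 0.0151, limma).

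Among the effectors, Bst2 was at 252, 351 and 240 FPKM in vehicle and at 189, 192 and 175 FPKM with TGFb, a fall of 0.58 (SE 0.14, adjusted p = 0.00167, limma). Oasl2, an oligoadenylate synthetase-like protein of RNA sensing, fell by 0.56 from 48.9 ± 13.1 to 32.1 ± 0.605 FPKM (SD, n = 3; adjusted p = 0.003, limma). All 3 TGFb libraries of both genes lay below the lowest vehicle library. Ifit3 and Ifit1, tetratricopeptide proteins that act on foreign RNA, fell by 0.68 (adjusted p = 0.0201) and 0.46 (adjusted p = 0.0396, both limma). Isg15 was at 116, 205 and 126 FPKM in vehicle and at 109, 119 and 113 FPKM with TGFb. These groups overlapped, and its change of -0.34 was not called (95% interval -0.75 to 0.07, adjusted p = 0.149, limma).

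Vehicle replicate 2 bears on the size of these falls. Without it 5 members were called, and Irf9 (-0.15, adjusted p = 0.123), Ifit1 (-0.25, adjusted p = 0.253) and Ifit3 (-0.40, adjusted p = 0.14) were not. The same 3 were not called without TGFb replicate 1. Ifit1 and Ifit3 were not called with the compared groups fitted alone (adjusted p = 0.0656 and 0.0521), and Ifit1 was not called without the filter or after quantile normalization (all limma). After scaling to TPM 6 members were called, and the share of all calls that were higher moved from 37.3% to 51.0% (49.7% after quantile normalization). Summed mesothelial markers were 272.8 to 292.01 FPKM in vehicle and 115.72 to 124.8 FPKM with TGFb, and their part in these results was not tested. By group means Upk3b, a uroplakin, went from 252 to 87.7 FPKM and Wt1 from 27.3 to 22.1 FPKM, while Msln went from 5.65 to 7.65 FPKM and Krt8 from 0.3 to 1.51 FPKM. Stellate markers summed to 3756.46 to 3924.75 FPKM in vehicle and to 5135.6 to 5765.44 FPKM with TGFb. By group means Col1a1, Col1a2, Acta2, Vim and Pdgfrb stood higher with TGFb, and Hand2, Lhx2 and Des lower. Macrophage markers summed to 8.67 to 8.81 FPKM in vehicle and to 5.65 to 6.19 FPKM with TGFb, and cholangiocyte markers to 8.08 to 10.5 FPKM and 7.2 to 8.43 FPKM. Of the cholangiocyte markers, Krt7 and Krt19 stood lower with TGFb by group means, and Epcam and Sox9 higher. The part of the stellate, macrophage and cholangiocyte markers was not tested either.

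SB431542 changed 1 member when given alone and 7 when given with TGFb. Without TGFb it raised 1 member, Irf1, by 0.28 (adjusted p = 0.00067, limma), from 36.2, 41.9 and 37.6 FPKM to 45.3, 48.8 and 46.6 FPKM, with no overlap. The background was 11.9% of tested genes higher and 5.05% lower, so 1 of 9 members higher lay near the share of all tested genes. Calls that were higher made up 70.1% of all calls (52.1% after quantile normalization). The other 8 members were not called, at an unadjusted p under 0.05 for none of them. Their intervals still allowed changes of some size: that of Isg15 ran from -0.63 to 0.19 and that of Ifit3 from -0.35 to 0.64. Mesothelial markers summed to 367.52 to 385.24 FPKM with SB431542 against 272.8 to 292.01 FPKM in vehicle. By group means Upk3b went from 251.8 to 335.8 FPKM and Wt1 from 27.3 to 32.5 FPKM, while Msln and Krt8 changed little. The part of these markers was not tested.

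With TGFb present, SB431542 raised 7 of 9 members over TGFb alone and lowered none, against 38.3% of tested genes higher and 21.4% lower. The members' median was 0.57 and that of all genes 0.07. Ifit3 was at 13.6, 13.8 and 16.0 FPKM with TGFb and at 32.4, 32.0 and 26.5 FPKM with SB431542 and TGFb. It rose by 1.02 (SE 0.24, adjusted p = 0.00112, limma), the largest rise of the 9, and the groups lay far apart. Irf7 rose by 0.72 (adjusted p = 0.00131), from 27.1 ± 2.62 to 45.7 ± 6.78 FPKM (SD, n = 3, limma). Oasl2, Ifit1, Bst2 and Stat2 rose by 0.62, 0.58, 0.57 and 0.55, with adjusted p of 2.49e-06 (Stat2) to 0.0104 (Ifit1, limma). Irf1 rose by 0.47 (adjusted p = 7.96e-08, limma), from 30.6 ± 0.349 to 42.8 ± 2.09 FPKM (SD, n = 3). Isg15 (0.30, adjusted p = 0.193) and Irf9 (0.12, adjusted p = 0.193) were not called by limma. Leaving out each of the 6 libraries in turn gave 7 members called every time. The share of all calls that were higher was 64.2%, and 49.0% after quantile normalization. Summed mesothelial markers were 291.14 to 349.07 FPKM with SB431542 and TGFb and macrophage markers 8.54 to 9.51 FPKM. By group means Upk3b and Wt1 stood above TGFb alone, and Msln and Krt8 below it. The part of these markers was not tested.

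In SB431542-treated cells TGFb changed no member by limma, and 1 of 9 had an unadjusted p under 0.05 (Irf1, -0.13, adjusted p = 0.215). Here 2.01% of tested genes were higher and 2.35% lower, a split of 46.0% higher that became 59.5% after scaling to TPM. The 9 changes ran from -0.13 to 0.19. The test of the difference itself, the interaction of SB431542 with TGFb, called 5 members: Irf7 (0.90, adjusted p = 0.0077), Oasl2 (0.67, adjusted p = 0.0173), Bst2 (0.60, adjusted p = 0.0245), Stat2 (0.49, adjusted p = 0.00171) and Irf1 (0.19, adjusted p = 0.0498, all limma). All 5 were higher, against 21.5% of tested genes higher and 12.8% lower. In that background 62.7% of calls were higher, and 51.4% after scaling to TPM. Without vehicle replicate 2, TGFb replicate 3 or SB431542 replicate 3, 3 members were called. TGFb, SB431542 with TGFb and their controls share libraries, so the fall with TGFb and the rise over TGFb are not independent of each other.

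**Figure D2:**
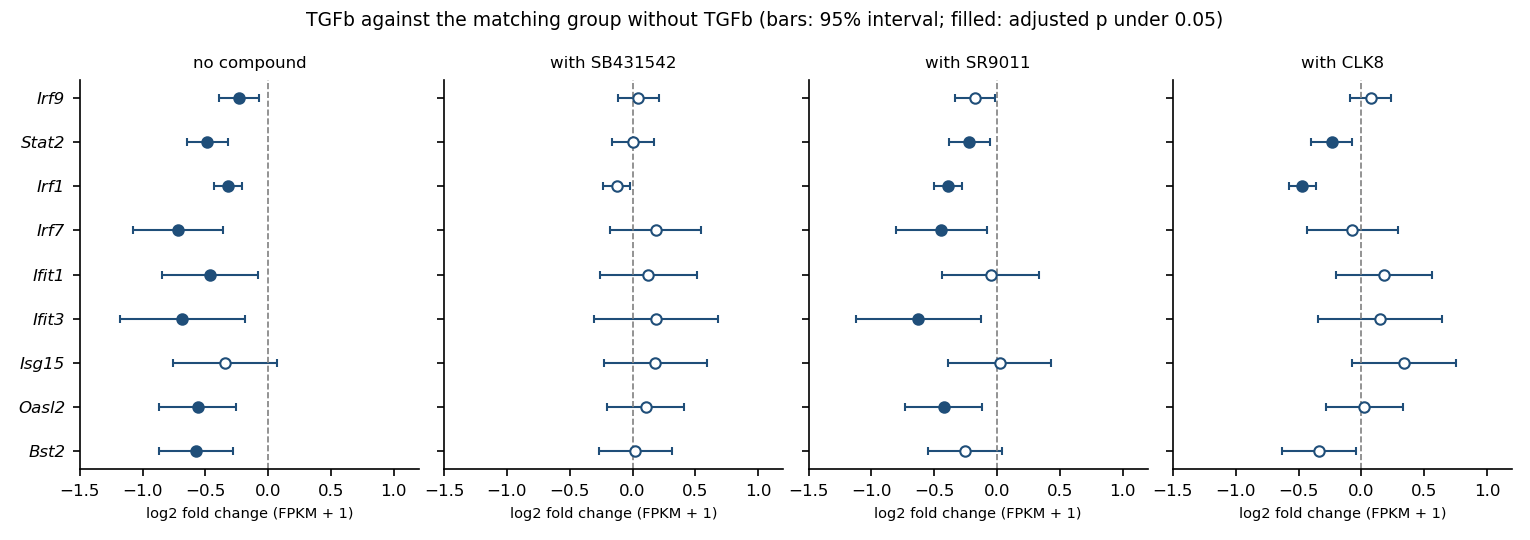
Log2 fold change (FPKM + 1) for TGFb against the matching group without TGFb, in cells with no compound, SB431542, SR9011 or CLK8, with 95% intervals and filled points where limma's adjusted p was under 0.05. With no compound 8 of 9 genes are called lower, with SB431542 none, with SR9011 5 and with CLK8 2.

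SR9011 had the median change farthest from 0 of the 3 compounds, and Bst2 moved opposite to the rest. Without TGFb it lowered 8 of 9 members and raised 1, Bst2, where 28.3% of tested genes were lower and 40.7% higher. Calls that were higher made up 59.0% of all calls, and 49.7% after scaling to TPM. The members' median change was -1.12, and that of all tested genes 0.06. Summed mesothelial markers were 60.16 to 89.52 FPKM with SR9011 against 272.8 to 292.01 FPKM in vehicle, and their part in these results was not tested. By group means Upk3b went to 53.7 FPKM, Wt1 to 8.27 FPKM and Krt8 to 0.15 FPKM, while Msln went the other way, from 5.65 to 16.8 FPKM. Stellate markers summed to 1363.04 to 1549.32 FPKM with SR9011 against 3756.46 to 3924.75 FPKM in vehicle. By group means Col1a1 went from 1574 to 405 FPKM, Hand2 from 69.05 to 26.4 FPKM and Vim from 743.5 to 491.7 FPKM. Col1a2 and Acta2 were also lower, while Pdgfrb went from 10.6 to 17.9 FPKM and Lhx2 and Des changed little. The sum of the cholangiocyte markers also stood lower, at 4.04 to 4.67 FPKM with SR9011 against 8.08 to 10.5 FPKM in vehicle. Its members split: Krt7 went from 6.65 to 1.14 FPKM and Krt19 from 2.14 to 0.647 FPKM by group means. Sox9 went the other way, from 0.533 to 2.46 FPKM, and Epcam was at 0.0867 and 0.1 FPKM. Macrophage markers summed to 8.85 to 10.78 FPKM against 8.67 to 8.81 FPKM in vehicle. The part of the stellate, cholangiocyte and macrophage markers was not tested. Without SR9011 replicate 1, the library farthest from its group, 8 members were called and Bst2 was not (0.25, adjusted p = 0.165, limma).

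Isg15, Ifit3 and Ifit1 had the largest falls of the 9. Isg15 was at 61.9, 42.9 and 45.6 FPKM with SR9011 against 116, 205 and 126 FPKM in vehicle, a fall of 1.53 (SE 0.20, adjusted p = 1.27e-06, limma). Ifit1 was at 8.65, 9.35 and 11.5 FPKM against 23.7, 38.3 and 25.2 FPKM, a fall of 1.45 (SE 0.18, adjusted p = 8.47e-07, limma). Ifit3 was at 8.02, 6.90 and 8.83 FPKM against 18.3, 35.4 and 20.6 FPKM, a fall of 1.48 (SE 0.24, adjusted p = 1.88e-05, limma). In each of these genes every SR9011 library lay below the lowest vehicle library. Oasl2 fell by 1.12 (adjusted p = 1.08e-06, limma), from 48.9 ± 13.1 to 21.5 ± 2.67 FPKM (SD, n = 3). Ifit3b, the near copy of Ifit3, averaged 6.70 FPKM in vehicle and 0.92 FPKM with SR9011.

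The transcription factors fell by less, apart from Irf7. Irf7 was at 23.7, 15.6 and 18.2 FPKM with SR9011 and fell by 1.22 (SE 0.17, adjusted p = 3.86e-06, limma). Irf1 was at 30.5, 26.6 and 27.3 FPKM and fell by 0.44 (adjusted p = 1.36e-07, limma). Irf9 was at 34.5, 27.9 and 27.5 FPKM and fell by 0.39 (adjusted p = 0.000106, limma). All 3 lay below every vehicle library. Stat2 was at 21.2, 20.8 and 21.0 FPKM, below the lowest vehicle library at 21.6 FPKM, and its fall of 0.20 (adjusted p = 0.0302, limma) was not called without vehicle replicate 2 (-0.08, adjusted p = 0.337) or without SR9011 replicate 2 or 3. Nor was it called without the filter (adjusted p = 0.0534) or with the compared groups fitted alone (adjusted p = 0.0966, limma). Bst2 was at 396, 301 and 361 FPKM with SR9011 and at 252, 351 and 240 FPKM in vehicle, so the groups overlapped. Its rise of 0.34 (SE 0.14, adjusted p = 0.0378, limma) was not called after scaling to TPM (0.27, adjusted p = 0.0719), without the filter (adjusted p = 0.0583), with the compared groups alone (adjusted p = 0.0725, limma) or without replicate 1 or 3 of either group.

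With TGFb present, SR9011 lowered 7 of 9 members below TGFb alone and raised 1, where 24.0% of tested genes were lower and 36.8% higher. Calls that were higher made up 60.5% of all calls, and 45.8% after scaling to TPM. The members' median was -0.94, against 0.05 over all genes. Ifit3 was at 5.56, 3.68 and 5.21 FPKM, the lowest level of any member in any group, and fell by 1.42 (adjusted p = 3.89e-05, limma). Isg15 was at 48.8, 50.6 and 51.4 FPKM against 109, 119 and 113 FPKM with TGFb alone, a fall of 1.16 (adjusted p = 4.58e-05, limma). Ifit1, Oasl2 and Irf7 fell by 1.04, 0.99 and 0.94, and Irf1 and Irf9 by 0.51 and 0.33, with adjusted p of 0.000713 or below (limma). Stat2 was not called (0.07, 95% interval -0.10 to 0.23, adjusted p = 0.482, limma), with 18.8, 17.3 and 17.6 FPKM beside 17.1, 17.4 and 16.7 FPKM. Bst2 was at 283, 318 and 283 FPKM against 189, 192 and 175 FPKM, a rise of 0.66 (SE 0.14, adjusted p = 0.000374, limma) with no overlap. Each count stayed at 8 called when any 1 of the 6 libraries was left out. Mesothelial markers summed to 58.49 to 73.52 FPKM with SR9011 and TGFb and cholangiocyte markers to 2.51 to 3.12 FPKM. By group means Upk3b (28.1 FPKM), Wt1 (7.85 FPKM) and Krt8 stood below TGFb alone, and Msln above it (29.3 against 7.65 FPKM). Krt7, Krt19 and Epcam stood below TGFb alone, and Sox9 above it (1.33 against 0.717 FPKM). The part of these markers was not tested.

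In SR9011-treated cells TGFb lowered 5 members further and raised none, where 31.0% of tested genes were lower and 14.3% higher. Irf1 went from 30.5, 26.6 and 27.3 FPKM to 20.8, 21.5 and 21.3 FPKM, a fall of 0.39 (adjusted p = 2.76e-06, limma). Ifit3, Irf7, Oasl2 and Stat2 fell by 0.63, 0.44, 0.42 and 0.22, with adjusted p of 0.0231 (Oasl2) to 0.0432 (Irf7, limma). Isg15 (0.02) and Ifit1 (-0.05) were not called, with intervals of -0.39 to 0.43 and -0.43 to 0.33. Only 1 member was called without SR9011 replicate 1 or SR9011+TGFb replicate 2, 2 without SR9011+TGFb replicate 3, and 3 without SR9011 replicate 3. Quantile normalization gave 2 members, and TPM or no filter gave 3. The split of all calls went from 31.6% higher to 43.7% with TPM. The interaction of SR9011 with TGFb called 0 members by limma, with 1 at an unadjusted p under 0.05 (Stat2, 0.27, adjusted p = 0.0748), where 16.6% of tested genes were higher and 15.3% lower. Without vehicle replicate 1 it called 1 member.

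**Figure D3:**
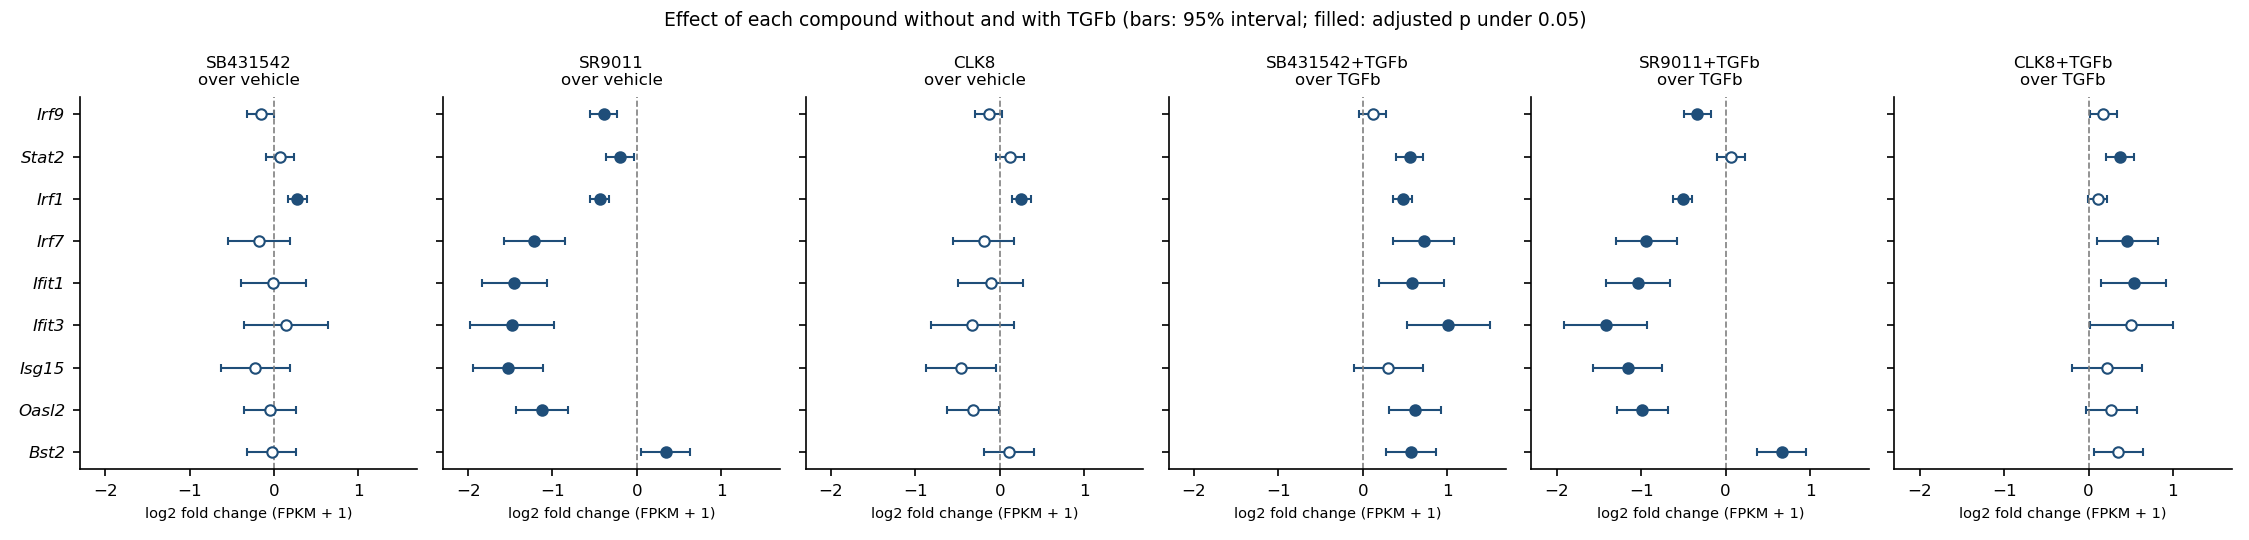
Log2 fold change (FPKM + 1) for each compound over vehicle (left 3 panels) and for each compound with TGFb over TGFb alone (right 3 panels), with 95% intervals and filled points where limma's adjusted p was under 0.05. SR9011 lowers all genes but Bst2 and, with TGFb, Stat2, while SB431542 with TGFb raises 7 of 9.

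CLK8 had few members called, 1 without TGFb and 3 over TGFb alone. Without TGFb it raised 1, Irf1, by 0.25 (adjusted p = 0.00051, limma), to 44.8, 48.1 and 45.5 FPKM, above all vehicle libraries. None was lower, where 30.3% of tested genes were higher and 13.6% lower, and the members' median was -0.13. The split of all calls was 69.1% higher, and 52.1% after quantile normalization. Isg15 (-0.46, 95% interval -0.87 to -0.05, adjusted p = 0.064) and Oasl2 (-0.31, 95% interval -0.62 to -0.01, adjusted p = 0.0895) had an unadjusted p under 0.05 in limma but were not called. Isg15 stood at 120, 97.1 and 98.3 FPKM, overlapping the vehicle libraries. Without vehicle replicate 1, 3 members were called, and without vehicle replicate 2, 2, with Stat2 at 0.24 (adjusted p = 0.00914, limma). Mesothelial markers summed to 75.98 to 91.9 FPKM with CLK8. By group means Upk3b was at 57.9 FPKM and Wt1 at 15.3 FPKM, below vehicle, and Msln at 10.2 FPKM and Krt8 at 0.477 FPKM, above it. Cholangiocyte markers summed to 4.43 to 5.13 FPKM and macrophage markers to 11.28 to 12.79 FPKM. Among the former, group means of Krt7 (1.95 FPKM) and Krt19 (0.79 FPKM) were below vehicle, and those of Sox9 (1.87 FPKM) and Epcam (0.107 FPKM) above it. The part of the mesothelial, cholangiocyte and macrophage markers was not tested.

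With TGFb present, CLK8 raised 3 members over TGFb alone and lowered none, where 27.7% of tested genes were higher and 13.3% lower. The 3 of 9 members higher thus lay near the share of all tested genes. Stat2 was at 23.5, 19.8 and 23.9 FPKM against 17.1, 17.4 and 16.7 FPKM, a rise of 0.37 (SE 0.08, adjusted p = 0.00067, limma) with no overlap. Ifit1 was at 33.2, 22.2 and 36.4 FPKM against 18.7, 20.4 and 22.1 FPKM, a rise of 0.54 (adjusted p = 0.0249, limma). Irf7 was at 45.1, 28.5 and 41.1 FPKM against 24.2, 29.2 and 28.03 FPKM, a rise of 0.46 (adjusted p = 0.0401, limma) in groups that overlapped. In all 3 genes replicate 2 of the combined treatment was the lowest, and in Ifit1 and Irf7 it lay beside the highest library of TGFb alone. The other 6 members had values of 0.11 (Irf1) to 0.51 (Ifit3) with adjusted p of 0.0507 (Bst2) to 0.395 (Isg15, limma). The 9 changes ran from 0.11 to 0.54, with a median of 0.35 against 0.05 over all genes.

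The count for CLK8 with TGFb rested on single libraries. It was 7 without CLK8+TGFb replicate 2, and 1 without TGFb replicate 1, CLK8+TGFb replicate 1 or CLK8+TGFb replicate 3. It was 6 after scaling to TPM. With the compared groups fitted alone, Ifit1 (adjusted p = 0.0708) and Irf7 (adjusted p = 0.0957) were not called while Irf9 and Bst2 were, and Irf7 was also not called without the filter or after quantile normalization (all limma). The split of all calls was 67.5% higher, and 49.6% after quantile normalization. Mesothelial markers summed to 48.97 to 60.08 FPKM, cholangiocyte markers to 3.73 to 5.39 FPKM and macrophage markers to 5.39 to 6.24 FPKM. By group means the mesothelial Upk3b, Wt1 and Krt8 stood below TGFb alone, and Msln above it. Of the cholangiocyte markers, Krt7 and Krt19 stood below TGFb alone, Sox9 above it and Epcam level with it. The part of all these markers was not tested.

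In CLK8-treated cells TGFb lowered 2 members and raised none, where 34.6% of tested genes were lower and 17.3% higher. Irf1 fell by 0.47 (SE 0.05, adjusted p = 1.1e-07, limma), from 44.8, 48.1 and 45.5 FPKM to 32.9, 32.2 and 34.04 FPKM. Stat2 fell by 0.24 (adjusted p = 0.0159, limma) and was not called after scaling to TPM (-0.14, adjusted p = 0.146). Bst2 (-0.34, adjusted p = 0.0519, limma) lay just outside the threshold, and Isg15 was at 0.34 (95% interval -0.07 to 0.75). Bst2 was called lower with a filter at 5 FPKM (adjusted p = 0.0477) and with the compared groups alone (adjusted p = 0.0416, limma). Without CLK8+TGFb replicate 2, Isg15 was called higher (0.55, adjusted p = 0.0236) and Stat2 was not called (adjusted p = 0.134, limma). After scaling to TPM Irf9 was called higher (0.17, adjusted p = 0.0498, limma). Without CLK8 replicate 1, 1 member was called. Calls that were higher made up 33.3% of all calls, and 54.8% after scaling to TPM. Mesothelial markers summed to 75.98 to 91.9 FPKM with CLK8 and to 48.97 to 60.08 FPKM with CLK8 and TGFb. By group means Upk3b went from 57.9 to 23.6 FPKM, while Wt1, Msln and Krt8 stood higher with TGFb. Macrophage markers summed to 11.28 to 12.79 FPKM and to 5.39 to 6.24 FPKM. The part of these markers was not tested. The interaction of CLK8 with TGFb called 0 members by limma. An unadjusted p under 0.05 was found for 7 of 9, and the share of all tested genes at that unadjusted threshold was not worked out. By adjusted p, 4.58% of tested genes were higher and 3.39% lower, and the split of 57.4% higher became 72.5% after scaling to TPM. It called 1 member without vehicle replicate 1. Without CLK8+TGFb replicate 2, 4 members were called: Isg15 (0.90), Ifit1 (0.85), Irf7 (0.84) and Oasl2 (0.75). Without both that library and vehicle replicate 2, Oasl2 alone was called (0.54, adjusted p = 0.0192, limma).

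With the 8 groups placed in order of a gene's means, limma called few steps between neighbours. Isg15 fell into an upper run of 6 groups, from vehicle (149 FPKM) to CLK8 (105 FPKM), in which no step was called, and a lower pair of SR9011+TGFb and SR9011 at 50.3 and 50.1 FPKM. The step between CLK8 and SR9011+TGFb was 1.04 (adjusted p = 0.000139, limma) with no overlap. Ifit1 had its only called step between TGFb (20.4 FPKM) and SR9011 (9.82 FPKM, 0.99, adjusted p = 7.83e-05, limma). Its groups above that step were not level. TGFb was called lower than vehicle (adjusted p = 0.0396), SB431542+TGFb (adjusted p = 0.0104) and CLK8+TGFb (adjusted p = 0.0249, all limma). A step that is not called between neighbours does not show equal levels. Ifit3, Oasl2 and Irf7 had further called steps from TGFb down to SR9011 (adjusted p of 0.00195 to 0.0149) and from SR9011 down to SR9011+TGFb (adjusted p of 0.0231 to 0.0432, limma), and Irf7 also from CLK8+TGFb down to TGFb (adjusted p = 0.0401). Stat2 ran from CLK8 (26.5 FPKM) to TGFb (17.0 FPKM), with its only called step from SR9011 down to SR9011+TGFb (adjusted p = 0.0277, limma). Irf1 ran from SB431542 (46.9 FPKM) to SR9011+TGFb (21.2 FPKM), with called steps from vehicle to CLK8+TGFb (adjusted p = 0.00159), from TGFb to SR9011 (adjusted p = 0.0478) and at the end (adjusted p = 2.76e-06, limma). Bst2 ran from SR9011 (353 FPKM) to TGFb (185 FPKM) and Irf9 from vehicle (39.6 FPKM) to SR9011+TGFb (26.4 FPKM), with no called step between neighbours in either gene.

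The members also moved together between libraries of 1 group. Vehicle replicate 2 was above both other vehicle libraries in 9 of 9 members and in 88 of 105 other tested interferon pathway genes, where 28.1% of all tested genes had that order. CLK8+TGFb replicate 2 was below both others of its group in 9 of 9 members and in 80 of the 105, where 33.5% of all tested genes had that order. Isg15, for instance, was at 205 FPKM in that vehicle library against 116 and 126 FPKM, and at 98.3 FPKM in that CLK8+TGFb library against 155 and 153 FPKM. Both libraries were singled out after their values were seen, as those of the 24 with all 9 members on the same side. SB431542 replicate 2 was highest of its group in 8 members and lowest in none. SR9011 replicate 1 and SB431542+TGFb replicate 1 were each highest in 7 and lowest in 1. Vehicle replicate 1 and SR9011 replicate 2 were each lowest in 7 and highest in none. SB431542+TGFb replicate 3 was lowest in 7 and highest in 1, and CLK8 replicate 3 lowest in 6 and highest in none. Some were mixed: TGFb replicate 3 was highest in 2 and lowest in 3, and SR9011+TGFb replicate 1 highest in 4 and lowest in 3. Shares of all tested genes were not worked out for these libraries. Over the 24 libraries, deviations from the group mean correlated between members with a median Pearson r of 0.72 in 36 pairs (0.28 to 0.94). Pairs with Irf1 had a median of 0.49 in 8 pairs, and the 28 pairs without it a median of 0.78. These r describe libraries that share their preparation and scaling.

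**Figure D4:**
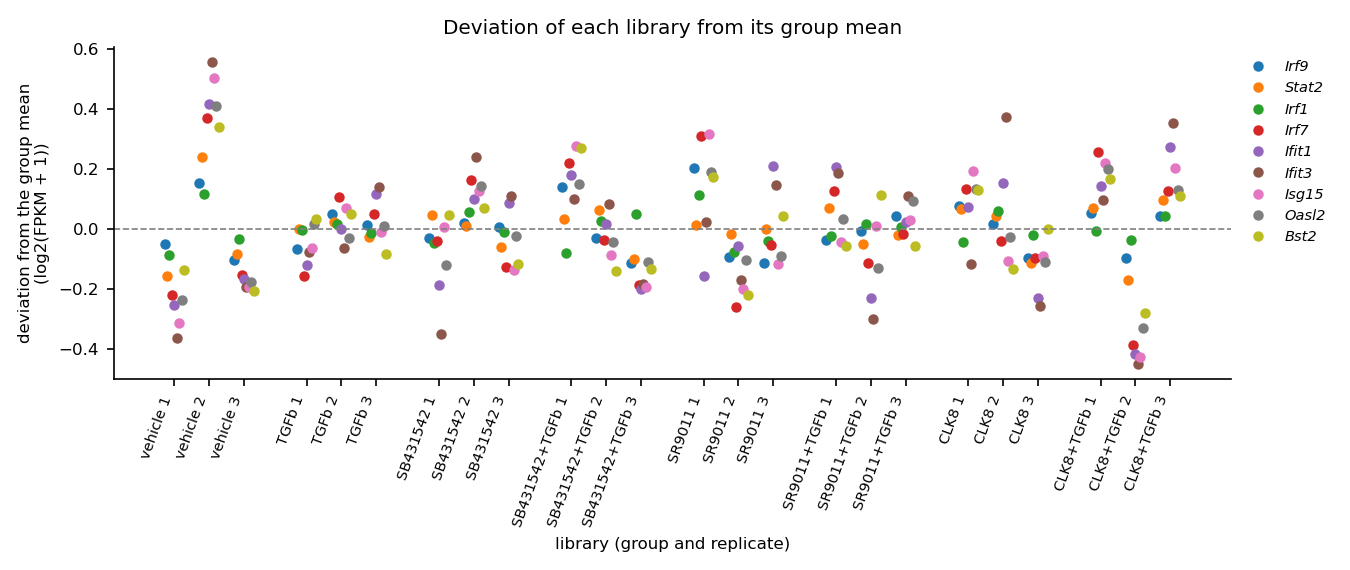
Deviation of each library's log2(FPKM + 1) from its group mean (vertical axis) for each of the 24 libraries (horizontal axis), with 1 coloured point per gene. The 9 points lie together above 0 in vehicle replicate 2 and below 0 in CLK8+TGFb replicate 2, with Irf1 nearest to 0 in both.

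The genes whose levels over all 24 libraries were most like those of a member were named by their Pearson r. For Irf7, Oasl2 and Irf9 the most alike was Oas1a, an oligoadenylate synthetase (Pearson r of 0.98, 0.98 and 0.94), with Dhx58 and Igtp (both 0.98) next for Irf7, Oas1g (0.97) and Igtp (0.97) for Oasl2 and Ifi35 (0.94) and Socs1 (0.92) for Irf9. Isg15 was most like Oas1g (0.97) and Oas1a (0.95). Ifit1 was most like Iigp1, Cmpk2 and Ifit3b (0.97 each), and Ifit3 like Igtp and Ifit3b (0.97 each) and Gbp2 (0.96). Stat2 was most like Parp10 (0.94), Uba7 and Sp110 (both 0.93), with none of the 3 shared with its partner Irf9. Irf1 was most like Cables1, Psmb10 and C3 (0.98 each), a proteasome subunit and a complement protein among them. Bst2 was most like Shisa5 (0.94) and the antigen presentation genes B2m (0.90) and H2-K1 (0.88). These r hold the differences between groups and describe 24 libraries.

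The rest of the pathway was read from 140 further genes listed for their known roles, of which 128 were in the table and 105 passed the filter on low values. Of these 105, 82 were lower and 3 higher with TGFb (78.1% and 2.86%, against 34.4% and 20.5% of all tested genes), with a median change of -0.38. With SR9011 78 were lower and 13 higher (74.3% and 12.4%, against 28.3% and 40.7%), with a median of -0.52. With SR9011 and TGFb 69 were lower and 19 higher than with TGFb alone (65.7% and 18.1%, against 24.0% and 36.8%). SB431542 with TGFb raised 80 over TGFb and lowered 4 (76.2% and 3.81%, against 38.3% and 21.4%), with a median of 0.39. CLK8 with TGFb raised 51 and lowered 8 (48.6% and 7.62%, against 27.7% and 13.3%), with a median of 0.23. Without TGFb, SB431542 raised 11 and lowered 4, and these 10.5% and 3.81% lay near the 11.9% and 5.05% of all tested genes. CLK8 without TGFb raised 25 and lowered 10, and these 23.8% and 9.52% lay below the 30.3% and 13.6% of all tested genes. TGFb lowered 54 and raised 7 in CLK8-treated cells (51.4% and 6.67%, against 34.6% and 17.3%) and lowered 45 and raised 5 in SR9011-treated cells (42.9% and 4.76%, against 31.0% and 14.3%). In SB431542-treated cells it raised 3 and lowered none, where 2.01% of all tested genes were higher and 2.35% lower. The 3 raised by TGFb alone were Irgm1 (0.40), Irf2bpl (0.86) and Ptpn2 (0.20), a phosphatase that restrains JAK signalling. SB431542 with TGFb lowered the same 3 and Tgtp1 (-0.35) below TGFb alone. The 4 lowered by SB431542 without TGFb were Cxcl10 (-0.53), Ifi204 (-0.26), Irf2bpl (-0.24) and Ifi27 (-0.17). TGFb raised Irf2bp2 (0.27), Irf2bpl (0.24) and Pml (0.17) in SB431542-treated cells. In SR9011-treated cells it raised Irf2bpl (1.11), Irgm1 (0.62), Tgtp2 (0.60), Trim56 (0.44) and Ifi47 (0.35). Of these, Irgm1, Tgtp1, Trim56 and Ifi47 were named after their values were seen. The interaction with TGFb called 63 of the 105 higher and 2 lower for SB431542, where 21.5% of all tested genes were higher and 12.8% lower. It called 24 higher and 3 lower for SR9011 (22.9% and 2.86%, against 16.6% and 15.3%), and 9 and 1 for CLK8 (8.57% and 0.952%, against 4.58% and 3.39%). The lower ones were Irf2bpl and Ptpn2 for SB431542, Jak1, Ptpn2 and Cd274 for SR9011, and Tlr4 for CLK8.

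**Figure D5:**
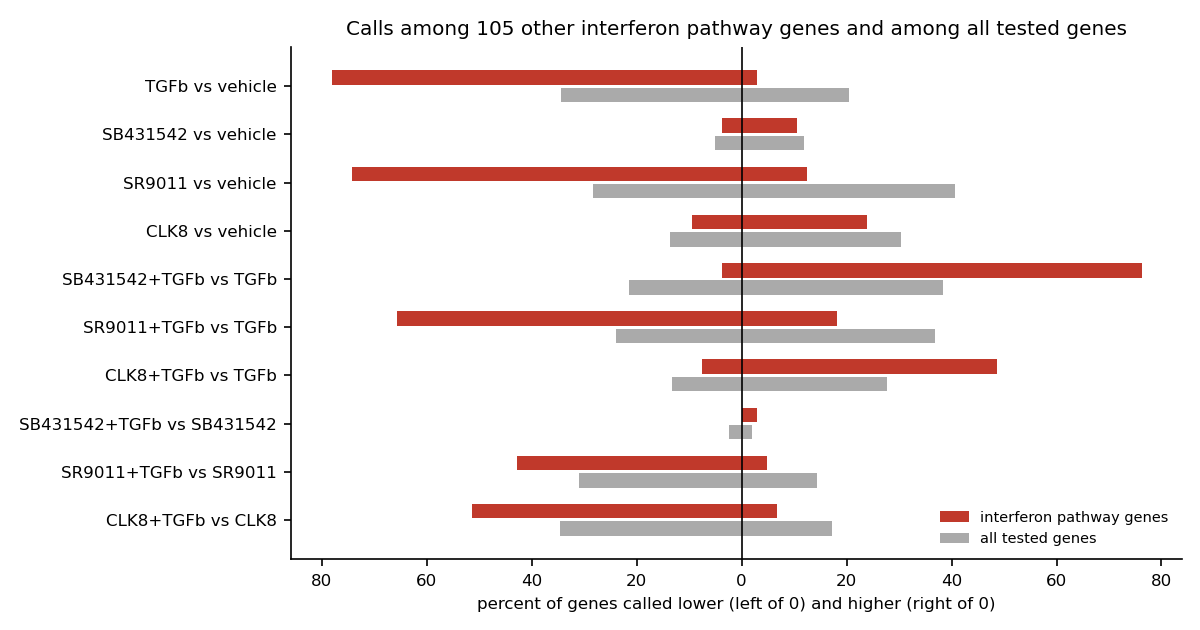
Percent of the 105 other interferon pathway genes (red) and of all 11297 tested genes (grey) called lower (left of 0) or higher (right of 0) by limma in 10 comparisons. Lower calls reach 78.1% of the pathway genes with TGFb and 74.3% with SR9011, and higher calls 76.2% for SB431542+TGFb over TGFb.

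At the top of the pathway, the listed interferon genes in the table were near 0. Ifnb1, the interferon beta gene, reached at most 0.07 FPKM and was at 0 in 19 of 24 libraries. Ifna4 and Ifne reached at most 0.10 FPKM and Ifnz 0.60 FPKM, so none passed the filter. Of 6 tested receptor genes, 4 were lower and none higher with TGFb, where 34.4% of all tested genes were lower and 20.5% higher. With SR9011 2 were lower and 2 higher, where 28.3% were lower and 40.7% higher. The receptor chain Ifnar2 was at 72.7 ± 3.84 FPKM in vehicle and 59.3 ± 3.11 FPKM with TGFb (SD, n = 3), a fall of 0.29 (adjusted p = 4.42e-05, limma), and it fell by 0.27 with SR9011 (adjusted p = 5.73e-05, limma). Ifngr1 also fell with SR9011, by 0.13 (adjusted p = 0.00615), while Ifnlr1 rose by 0.525 (adjusted p = 1.58e-06) and Ifngr2 by 0.16 (adjusted p = 0.00487, all limma). Ifnar1 rose with CLK8 by 0.27 (adjusted p = 7.76e-06, limma). Of 11 tested genes of the signal relay and its inhibitors, 7 were lower and 1 higher with TGFb, and 6 lower and 3 higher with SR9011. With CLK8 4 were higher and none lower, where 30.3% of all tested genes were higher and 13.6% lower. Socs3, a feedback inhibitor of JAK signalling, fell by 0.55 with TGFb and by 0.51 with SR9011 and rose by 0.49 with CLK8. Jak1 rose by 0.24 with SR9011 (adjusted p = 3.98e-06, limma).

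The lists that follow are read beside the shares of all tested genes: 34.4% lower and 20.5% higher with TGFb, 28.3% lower and 40.7% higher with SR9011, and, over TGFb alone, 38.3% higher and 21.4% lower for SB431542 with TGFb and 27.7% higher and 13.3% lower for CLK8 with TGFb. Of 17 tested nucleic acid sensors and adaptors, 16 fell with TGFb and none rose, among them Ifih1, the RNA sensor MDA5 (-0.66), and the adaptors Myd88 (-0.50) and Ticam1 (-0.51). With SR9011 11 fell and 5 rose: Ifi204 fell by 1.63 and the RNA helicase gene Dhx58 by 1.32, whereas Tlr4, whose human form the line also expresses, rose by 0.99 and the adaptor Mavs by 0.42. Of 50 tested antiviral effectors, 43 fell with TGFb and none rose. Ifitm1, which blocks virus entry, fell by 1.43 and Uba7, the activating enzyme for Isg15, by 0.95. With SR9011 44 effectors fell and 1 rose, Ifi30, a thiol reductase of antigen processing (0.33, named after its values were seen). Ifitm1 (-1.98), Ifit3b (-1.95) and Ifi27l2a (-1.89) were among those that fell. SB431542 with TGFb raised 42 of the 50 over TGFb alone and lowered none, with Uba7 at 1.12 and Rnf213 at 1.10.

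Of 15 tested genes of gamma-type GTPases and chemokines, 10 fell with TGFb and 1, Irgm1, rose (0.40, named after its values were seen). Gbp6 fell by 0.93 and Gbp9 by 0.87, both guanylate-binding GTPases that act on intracellular pathogens. With SR9011 14 of the 15 fell and 1, Cd274, the checkpoint ligand PD-L1, rose (0.55, named after its values were seen). Cxcl10, a chemokine that draws T cells, fell by 2.88 (adjusted p = 1.08e-11, limma). CLK8 with TGFb raised 10 of the 15 over TGFb alone, such as Gbp7 by 0.52, but Cxcl10 fell by 1.21 (adjusted p = 1.16e-05, limma). Of 6 other tested factors of the IRF family and their partners, Irf2 fell by 0.77 with TGFb (from 18.6 ± 1.09 to 10.5 ± 0.238 FPKM, SD, n = 3), Irf5 fell by 0.67 and Irf2bpl rose by 0.86.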

How the data were processed

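Bulk RNA-seq of 24 EMS404 libraries was analysed from the deposited table, in which the authors give FPKM per gene with 2 decimals. Reads were processed with HISAT2 2.0.4, Bowtie2 2.2.5, RSEM and DESeq2 on mm10, per the submitters' processing notes. Per the labels' protocols RNA was purified with 1 of 2 kits by sample amount, and the sources used here do not tie libraries to kits. The table has no read counts. The value steps of 23 low genes put the relative depth of the libraries roughly between 0.92 and 1.06. Of 16612 identifiers, 8 stood on 2 lines and were left out, and all 24 columns matched a sample by name. Symbols and positions came from GENCODE M21 (43 identifiers had no symbol).

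Genes at 1 FPKM or more in at least 3 of 24 libraries (11297) entered 1 limma model of 8 groups on log2(FPKM + 1), with moderation by trend and robust (limma 3.58.1, R 4.3.3). Residual degrees of freedom were 16, and their median with moderation was 22.6. The 2-sided p-values were adjusted by Benjamini-Hochberg over all tested genes of each of 10 pairwise comparisons and 3 interactions. The 28 pairs of groups were tested in the same way for the order of levels. Tables and plots used Python 3.11.15, numpy 2.4.6, pandas 2.3.3 and matplotlib 3.10.9. Alternatives were pseudocounts of 0.5 and 0.1, no filter, a filter at 5 FPKM, TPM, quantile normalization, no trend or robust moderation, the compared groups alone, a replicate block and leaving out each library.

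The members and lists were chosen with earlier results of these data known. All members are named. From each pathway list, up to 4 called genes with the smallest adjusted p per comparison are named, and for each member the 3 most correlated other genes. Values of 1 gene that these rules name are not reported here. Same-numbered libraries deviated together, with all 3 correlations of deviations over 0.1 (0.41, 0.21 and 0.12), in SB431542 with SB431542+TGFb, and in no other of the 10 pairwise comparisons. Of the other pairs of groups, SB431542+TGFb with CLK8+TGFb also had all 3 over 0.1 (0.27, 0.14 and 0.13). This likeness comes from the data, and the labels do not say that same-numbered samples were paired.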

Additional observations from a re-analysis of the deposited data

Results flagged for a closer look

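The response of 5 genes to TGFb differed between cells with and without SB431542 by limma's interaction test. The difference of log2 changes was 0.90 for Irf7, 0.67 for Oasl2, 0.60 for Bst2, 0.49 for Stat2 and 0.19 for Irf1. Each of the 5 was lower with TGFb when no compound was given, and none was called for TGFb in SB431542-treated cells. Irf1 lay at the threshold (adjusted p = 0.0498), and was not called without the filter (adjusted p = 0.0667), after scaling to TPM (0.14, adjusted p = 0.119), after quantile normalization (adjusted p = 0.0785) or with no trend or robust moderation (adjusted p = 0.059). Nor was it called without vehicle replicate 2 or 3 or any 1 TGFb library. The same held without replicate 1 or 3 of SB431542 or replicate 2 or 3 of SB431542+TGFb (adjusted p of 0.0569 to 0.171 in these fits, limma). Without vehicle replicate 2, whose levels of all 9 genes were above both other vehicle libraries, Bst2 was at 0.43 (adjusted p = 0.0744). Bst2 was also not called without TGFb replicate 3 (adjusted p = 0.0533), SB431542 replicate 3 (adjusted p = 0.0619) or SB431542+TGFb replicate 1 (adjusted p = 0.0694, all limma).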

How the results depend on the processing

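No called change of the 9 genes changed sign under any alternative: of 1926 member values, 1799 kept their side of the threshold, 45 passed it only under the alternative and 82 no longer passed it. Leaving out each library in turn moved the number of members called to between 5 and 8 for TGFb, 1 and 3 for CLK8, 1 and 7 for CLK8+TGFb over TGFb, 1 and 6 for SR9011+TGFb over SR9011, and 1 and 3 for CLK8+TGFb over CLK8. For the interactions it gave 3 to 7 members with SB431542, 0 to 1 with SR9011 and 0 to 4 with CLK8. For the other pathway genes it gave 8 to 18 with SB431542, 39 to 66 with CLK8+TGFb over TGFb, 1 to 3 with SB431542+TGFb over SB431542, 17 to 31 for the SR9011 interaction and 4 to 14 for the CLK8 interaction. Member counts moved by over 1.5 times, or from 0, with no trend or robust moderation for CLK8 (2), with TPM for CLK8+TGFb over TGFb (6) and the CLK8 interaction (1), with no filter (3), TPM (3) and quantile normalization (2) for SR9011+TGFb over SR9011, and with quantile normalization for CLK8+TGFb over CLK8 (1). Smaller moves over these settings gave 6 to 8 members for TGFb, 7 to 9 for SR9011, 7 to 8 for SB431542+TGFb over TGFb and 4 to 6 for the SB431542 interaction. With no filter the CLK8 interaction called 6 other pathway genes against 10. Without both vehicle replicate 2 and CLK8+TGFb replicate 2, an alternative chosen after seeing the data, the CLK8 interaction called 1 member. The cause was not tested, other than that fewer libraries entered these fits.

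With the replicate number as a block, members called were 7 for TGFb, 1 for SB431542, 9 for SR9011, 1 for CLK8, 7, 8 and 4 for these compounds with TGFb over TGFb, 0, 5 and 3 for TGFb within each compound, and 5, 0 and 0 for the interactions. With the block Ifit1 was no longer called for TGFb (adjusted p = 0.0529), and it called Bst2 for CLK8+TGFb over TGFb (adjusted p = 0.0445) and over CLK8 (adjusted p = 0.046), and it changed no other call of a member. For SB431542+TGFb against SB431542, where same-numbered libraries deviated together, it called 0 members as without the block. Precision is limited by 3 libraries a group and by the unknown read depth. Overlapping genes and the copy Ifit3b limit Irf7, Irf9, Irf1 and Ifit3.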

Other observations

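Irgm1, an immunity-related GTPase chosen here after its values were seen, went the other way from most interferon genes with TGFb. It was at 44.4, 52.9 and 42.5 FPKM in vehicle and at 63.5, 58.9 and 61.6 FPKM with TGFb, a rise of 0.40 (adjusted p = 0.00078, limma) with no overlap. Irgm1 also rose with TGFb in SR9011-treated cells by 0.62 and in CLK8-treated cells by 0.56, and was not called in SB431542-treated cells (0.17). With SR9011 it fell by 0.75 to 26.9, 25.6 and 28.9 FPKM, below all vehicle libraries, as most members did.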
